A study of Mus musculus with 6 samples.

Results

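Zscan4 is a cluster of similar genes of the SCAN zinc finger family on mouse chromosome 7. Its 6 copies Zscan4a to Zscan4f were described together with 4 partner genes, Gm4340, AF067061, Duxf3 and Zfp352. These 10 of the 55450 genes in the files were taken by name from a list of genes of the 2-cell-like state that had been drawn up with the knockout and wild-type values in view. Their difference between the groups is therefore given as a description without a test. The groups were 3 libraries of Hoxd12-/- and 3 libraries of wild-type mouse embryonic stem cells. Hoxd12 encodes a homeobox transcription factor known from limb development. Cells of both groups were labelled C57BL6 and E3.5 embryo, and were grown in mES medium with 2i, inhibitors of kinases that keep stem cells naive. Per the same labels, total RNA was taken up in Trizol and libraries were made with a stranded mRNA kit. The labels say neither which part of Hoxd12 was deleted nor whether the libraries came from separate clones or cultures, so the spread within a group may be technical.

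A small share of cells in a mouse embryonic stem cell culture enters, for a time, a state whose transcripts resemble those of the 2-cell embryo, the stage at which the mouse genome is first switched on. Full-length Zscan4 proteins carry a SCAN domain and zinc fingers, mark this state, and are known for a role in telomere maintenance and genome stability. The copies were not compared as proteins here. Dux, a double homeobox factor, binds and activates many genes of the state, Zscan4 among them, and the chromatin assembly factor CAF-1 and the co-repressor Trim28 are known to hold it back. In bulk RNA, fewer cells in the state and less RNA per such cell cannot be told apart.

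The sequences before the gene starts show how alike the copies are upstream of their transcripts. RefSeq promoters (GRCm38.p6) were given for 8 of the 10 genes, with none for Zscan4a and Zscan4e. The Zscan4 windows below hold 181 bases each, 5′ to 3′, with 2 motifs in capitals: TATAAA and TGATTNAA, read on both strands. They were Zscan4b at chr7:10905051-10905231 on the minus strand, Zscan4c at chr7:11005541-11005721 on the plus strand, Zscan4d at chr7:11166183-11166363 on the minus strand and Zscan4f at chr7:11397734-11397914 on the plus strand.
Zscan4b: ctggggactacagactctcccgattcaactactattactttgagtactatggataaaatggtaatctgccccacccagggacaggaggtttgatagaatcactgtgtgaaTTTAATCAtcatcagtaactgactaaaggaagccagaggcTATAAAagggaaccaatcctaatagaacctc
Zscan4c: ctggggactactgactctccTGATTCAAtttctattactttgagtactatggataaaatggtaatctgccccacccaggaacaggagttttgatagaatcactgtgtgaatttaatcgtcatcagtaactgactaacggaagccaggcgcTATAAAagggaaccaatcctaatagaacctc
Zscan4d: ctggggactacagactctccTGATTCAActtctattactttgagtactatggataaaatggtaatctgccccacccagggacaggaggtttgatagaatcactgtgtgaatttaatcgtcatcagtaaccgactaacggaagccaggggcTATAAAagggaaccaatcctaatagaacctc
Zscan4f: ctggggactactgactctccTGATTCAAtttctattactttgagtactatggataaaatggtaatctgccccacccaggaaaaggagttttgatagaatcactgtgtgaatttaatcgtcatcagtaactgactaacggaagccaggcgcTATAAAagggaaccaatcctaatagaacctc
Zscan4c and Zscan4f differed at 1 of the 181 positions, and the other pairs at 6 to 11. TATAAA stood in all 4 windows, against 15.7% of the RefSeq promoters of 27025 genes, whose windows run from 250 bases before to 50 bases after the start. TGATTNAA also stood in all 4, in Zscan4b on the opposite strand and at another place. Within the full windows it was also found in Duxf3 and AF067061, so 6 of the 8 members with a promoter held it, against 3.34% of all promoters. The 4 Zscan4 windows are near-identical and not separate observations, so no enrichment is read from the shares of either motif. These motifs were chosen after the sequences had been read, and a match is a description of letters, not a bound site.

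The partner promoters were shown because 3 of them, on 3 chromosomes, shared a word that the Zscan4 windows lacked. It was repeated in Gm4340 and Zfp352. The longest word that the RefSeq promoters of Gm4340, AF067061 and Zfp352 have in common on either strand was ACACACCTTTAAT, of 13 bases. The windows printed hold 150 bases, with that word and ATATAAG in capitals. They were Gm4340 at chr10:104193892-104194041 on the plus strand, AF067061 at chr13:120262945-120263094 on the plus strand and Zfp352 at chr4:90218670-90218819 on the plus strand.
Gm4340: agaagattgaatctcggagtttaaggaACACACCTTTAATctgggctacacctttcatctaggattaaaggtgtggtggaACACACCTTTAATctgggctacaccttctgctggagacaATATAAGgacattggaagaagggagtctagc
AF067061: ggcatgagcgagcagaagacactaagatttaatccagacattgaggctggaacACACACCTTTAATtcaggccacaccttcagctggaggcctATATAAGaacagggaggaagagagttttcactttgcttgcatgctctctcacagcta
Zfp352: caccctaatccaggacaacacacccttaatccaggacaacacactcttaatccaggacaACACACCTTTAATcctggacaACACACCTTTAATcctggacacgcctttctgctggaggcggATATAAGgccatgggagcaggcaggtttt
Within the full promoter windows the 13-base word occurred 2 times in Gm4340, 3 times in Zfp352 and 1 time in AF067061, and 1 of the Zfp352 matches lies upstream of the bases printed. The word was picked because these 3 promoters share it, so its presence in them was fixed in advance. It was present in 0.155% of all promoters. ATATAAG stood downstream of it in each of the 3 genes and in 2.95% of all promoters. No enrichment is read from either share. Duxf3 held neither of these words.

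The likeness that bears on read counts is that of the transcripts, and it is not the same for each pair. Zscan4d held 21.5% of the 50-base stretches of Zscan4b. The promoter windows of this pair differed at 6 positions, but a count of mismatches is not comparable with a share of unbroken stretches. Of all 50-base stretches in the annotated transcripts of Zscan4f, 86.8% also occurred in a transcript of another gene, and the shares were 85.5% for Zscan4c, 90.1% for Zscan4b and 89.0% for Zscan4e. Zscan4a shared 63.6% and Zscan4d 49.6%, the lowest among the 6 copies. Zscan4b and Zscan4e formed the closest pair, with 85.3% of the stretches of Zscan4b found in Zscan4e, and Zscan4f shared 74.3% of its stretches with Zscan4c. Lengthening the stretch to 100 bases left 80.6% shared for Zscan4f and 29.6% for Zscan4d. Among the partners, 98.9% of the stretches of Gm4340 recurred elsewhere, 47.0% of those of Duxf3, 23.4% of those of AF067061 and 7.09% of those of Zfp352. The deposited values are expected counts, in which a read that fits several genes is divided among them. All 40 of the 40 values above 0 of the 9 genes with a symbol beginning Zscan4 were fractional, while Zfp352 had 0 fractional values among 3.

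**Figure D1:**
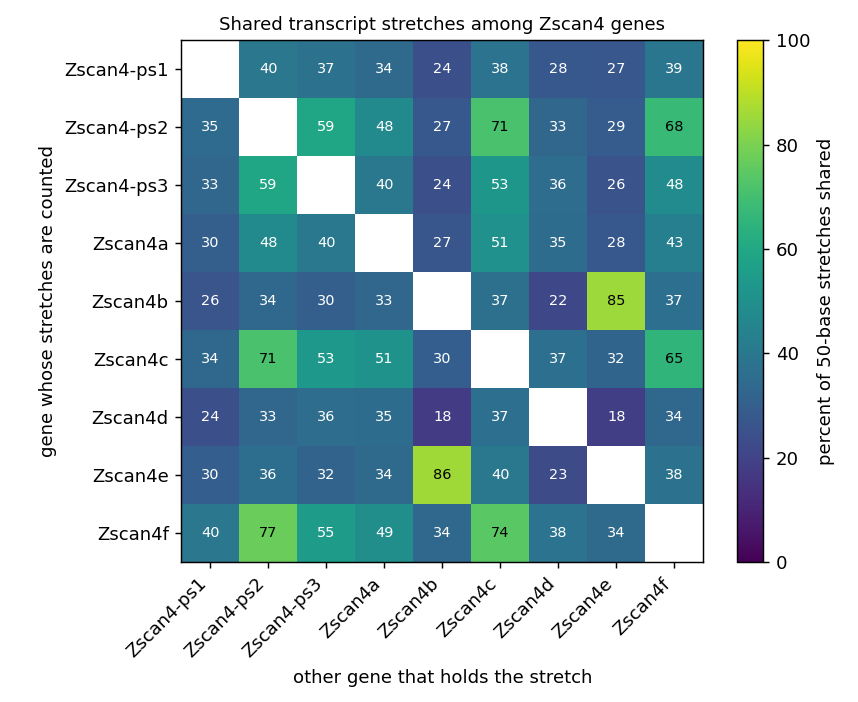
Percent of the 50-base stretches of each Zscan4 gene (rows) that also occur in the transcripts of another Zscan4 gene (columns), GENCODE M21. Zscan4b and Zscan4e, and Zscan4f with Zscan4c and Zscan4-ps2, are the pairs with the highest shares.

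The summed Zscan4 copies were about 10 times lower in the knockout. Over Zscan4a to Zscan4f the 3 knockout libraries held 18.82, 16.45 and 10.72 expected counts, and the 3 wild-type libraries 161.16, 141.6 and 158.54. The groups did not overlap, and the highest knockout library lay far below the lowest wild-type library. Scaled to the library total, as CPM, these were 2.61 ± 0.782 in the knockout and 25.7 ± 2.73 in wild type (SD, n = 3). From counts pooled over each group and divided by the pooled library totals, the level in wild type was 9.91 times that in the knockout, with a 95% interval of 7.30 to 13.7 that covers counting error only. The other folds of sums and of genes outside the fit were pooled in the same way, so they differ slightly from the ratio of the mean CPM. On the length-scaled TPM of the deposited files the same sums were 1.25 ± 0.356 and 12.45 ± 1.67 (SD, n = 3).

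Another 3 genes of the cluster carry the names Zscan4-ps1, Zscan4-ps2 and Zscan4-ps3. GENCODE M21 types these as protein coding and Zscan4a as an unprocessed pseudogene, so the symbols and the types do not match. Zscan4-ps2 had 5.88, 1.88 and 6.27 counts in the knockout and 30.03, 45.99 and 38.81 in wild type, a level among the Zscan4 genes below only Zscan4f and Zscan4c in wild-type TPM. Zscan4-ps1 was at 0 in every knockout library and had 1.33, 6.23 and 12.07 counts in wild type. That group level was 6.47 times a floor of 3 counts over the knockout group, scaled for depth. Such a floor leaves out the counting error of the wild-type counts, so this fold is no lower bound. Zscan4-ps3 had 3.3, 0 and 0 counts against 14.48, 18.9 and 7.81. For each of these 3 genes, every knockout library lay below every wild-type library.

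Adding them tightened the wild-type group. The sum over 9 genes was 28, 18.33 and 16.99 counts in the knockout and 207, 212.72 and 217.23 in wild type, or 3.56 ± 0.951 and 35.4 ± 1.275 CPM (SD, n = 3). The coefficient of variation among the wild-type libraries was 3.6% for this sum, 10.6% for the sum over 6 and 79.3% for Zscan4d alone. The fold between the groups was 9.94 (95% counting interval 7.70 to 13.2), close to that of the 6 copies.

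**Figure D2:**
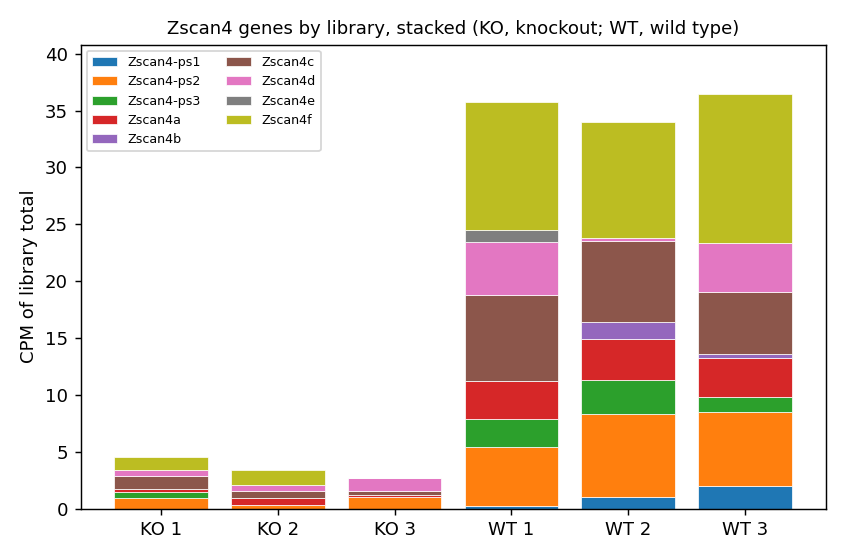
CPM of the library total of the 9 Zscan4 genes, stacked, in each of 3 knockout (KO) and 3 wild-type (WT) libraries. The wild-type totals are near-equal while the band of Zscan4d nearly vanishes in wild-type library 2, and all knockout stacks stay far below.

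Within wild type, the copies had unequal shares of the Zscan4 counts. Zscan4f held 32.4 ± 3.10% of the 9-gene total, Zscan4c 19 ± 3.44%, Zscan4-ps2 18 ± 3.56% and Zscan4a 9.75 ± 0.76% (SD, n = 3). Zscan4d held 8.57 ± 6.77%, and Zscan4b and Zscan4e less than any other. In the pooled knockout counts, which come to 63.32 over the 3 libraries, Zscan4f held 23.2%, Zscan4-ps2 22.2%, Zscan4d 20.7% and Zscan4c 19.1%. With so few knockout counts, divided among copies that share stretches, no difference in the makeup of the cluster is read from these shares.

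Zscan4f (ENSMUSG00000070828, chr7:11397915-11402318, plus strand, GRCm38) was the copy with the highest level. It had 7.17, 7.26 and 0.24 counts in the knockout and 65.1, 63.59 and 77.92 in wild type. The groups did not overlap, and knockout library 3 stood at almost nothing. The edgeR log2 fold change was −3.88 with a standard error of 0.38, and −3.25 without knockout replicate 3. In that knockout library the deposited effective length of Zscan4f was 388 bases, against 1449 to 1693 bases in the other libraries, so its few counts had been given to a shorter transcript and its TPM is not on the same footing.

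Zscan4c (ENSMUSG00000054272, chr7:11005745-11010547, plus strand) had 7.07, 3.21 and 1.81 counts in the knockout and 43.64, 44.53 and 32.69 in wild type, a log2 fold change of −3.33 (SE 0.38). Zscan4a (ENSMUSG00000110097, chr7:10794242-10799057, minus strand) had 1.23, 3.43 and 1.46 counts against 19.18, 22.6 and 20.32, a log2 fold change of −3.56 (SE 0.53). The value of Zscan4c was −3.95 without knockout replicate 1, and that of Zscan4a −4.31 without knockout replicate 2. Neither gene had overlapping groups, and the wild-type values of Zscan4a were the most even of the 6 copies.

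The other 3 copies did not separate the groups. Zscan4d (ENSMUSG00000090714, chr7:11161374-11166159, minus strand) had 3.35, 2.55 and 7.21 counts in the knockout and 27.28, 1.69 and 25.51 in wild type. Wild-type library 2 was thus below every knockout library, although its 9-gene sum was like those of the other wild-type libraries. Zscan4b (ENSMUSG00000095339, chr7:10900740-10905050, minus strand) was at 0 in the knockout and had 0, 9.19 and 2.1 counts in wild type. Its wild-type group level was 3.72 times the floor of 3 counts, which is no lower bound. Zscan4e (ENSMUSG00000095936, chr7:11306378-11310682, minus strand) was above 0 only in wild-type library 1, with 5.96 counts, a group level 1.96 times the same floor. In wild type, Zscan4b and Zscan4e were never above 0 in the same library.

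Gm4340 (ENSMUSG00000090854, chr10:104194042-104196522, plus strand) lies in a tandem run of near-identical genes on chromosome 10. It had 17.09, 0 and 14.25 counts in the knockout and 60.75, 47.74 and 52.23 in wild type, a log2 fold change of −2.40 (SE 0.54). The zero in knockout library 2 was not carried by the group of copies. Summed with the 6 genes that share at least 90% of its stretches, the counts were 29.68, 36 and 30.99 in the knockout and 203.22, 229.99 and 222 in wild type. This sum came to 5.48 ± 1.01 CPM against 36.35 ± 1.11 CPM (SD, n = 3), a 6.70-fold difference with a 95% counting interval of 5.38 to 8.35. The coefficient of variation in wild type was 3.05% for the sum and 16.1% for Gm4340 alone.

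AF067061 (ENSMUSG00000095071, chr13:120263114-120264517, plus strand) lies near the Tcstv genes, which are named for their transcripts at the 2-cell stage. It had 2, 1.38 and 0 counts in the knockout and 14.22, 5 and 17.57 in wild type, 10.75 times higher in wild type (95% counting interval 3.86 to 61.8). With the 6 genes that share stretches with it, Tcstv1 and Tcstv3 included, the counts were 8, 10.03 and 7.01 against 77.37, 63.45 and 83.55. That sum was 12.5 ± 2.08 CPM in wild type against 1.43 ± 0.382 CPM in the knockout (SD, n = 3), an 8.85-fold difference (95% counting interval 5.84 to 13.97). In both forms the groups did not overlap.

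**Figure D3:**
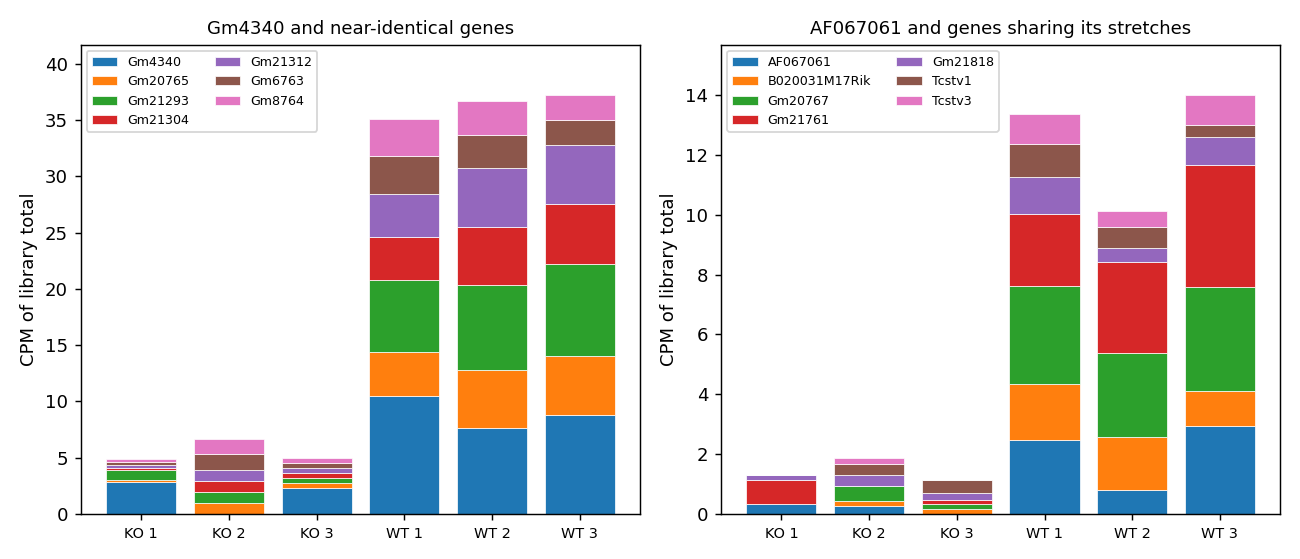
CPM of the library total for Gm4340 with its 6 near-identical genes (left) and AF067061 with the 6 genes sharing its stretches (right), stacked by library. In knockout library 2 the band of Gm4340 is missing although the stack is the tallest of the 3 knockout libraries.

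The factor and the last marker were near the limit of detection. Duxf3 (ENSMUSG00000075046, chr10:58229979-58232675, minus strand), a gene of the Dux family, had 0, 1 and 0 counts in the knockout and 3, 4 and 2.7 in wild type. The ratio of wild type to knockout was 9.58, with a 95% counting interval from 1.41 to 429. Zfp352 (ENSMUSG00000070902, chr4:90218820-90225702, plus strand), a zinc finger gene used as a marker of the state, was at 0 in the knockout and had 1, 2 and 2 counts in wild type. Its wild-type group level was 1.65 times the floor of 3 counts over the knockout group, which is no lower bound. A count of 3 corresponds to 0.478 to 0.554 CPM in these libraries, so at this depth a few reads decide both genes.

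Per length, the order of the members in wild type was Gm4340 at 7.37 ± 1.38 TPM, Zscan4f at 6.49 ± 1.30, Zscan4c at 2.76 ± 0.473, AF067061 at 2.45 ± 1.33, Zscan4a at 1.41 ± 0.0493 and Zscan4d at 1.27 ± 1.01 (SD, n = 3). Duxf3 followed at 0.347 ± 0.0603 TPM, Zscan4b at 0.323 ± 0.407, Zscan4e at 0.190 ± 0.329 and Zfp352 at 0.130 ± 0.06. Of the neighbours in this order, only Zscan4f and Zscan4c differed in their means by more than the larger of their SDs. The order within each other pair of neighbours is therefore not resolved by these libraries. Genes further apart in the order were not compared in this way.

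Over the 10 members, every knockout library lay below every wild-type library for 7, and Zscan4b, Zscan4d and Zscan4e were the exceptions. Among all genes with a count in any library, 8.28% had this pattern, and since the members were chosen on these values nothing is read from the comparison. Only 4 members, Zscan4a, Zscan4c, Zscan4f and Gm4340, passed the filter on low counts, which they did through their wild-type libraries.

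**Figure D4:**
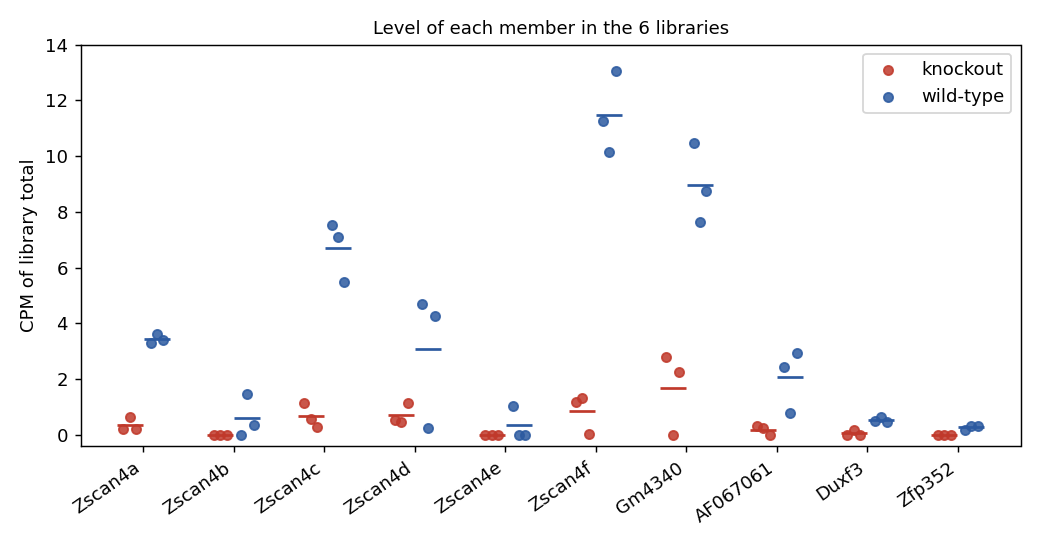
CPM of the library total of the 10 members in each library (points) with the group mean (line). Zscan4f and Gm4340 have the highest wild-type levels, and Zscan4b, Zscan4d and Zscan4e have a wild-type library among the knockout values.

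The libraries as a whole set the frame for the lists that follow. Totals lay between 5412577 and 6280934 expected counts, and the fit of all genes gave a biological coefficient of variation of 6.74%. Hoxd12 had 0 counts in all 6 libraries, so its RNA does not check the genotype labels. Of 12891 genes tested by edgeR, 3420 (26.5%) passed an adjusted p of 0.05, of which 1559 (12.1% of those tested) were higher and 1861 (14.4%) lower in the knockout. By limma on log2(TPM + 1), 1107 genes were higher and 749 lower. The 8 pluripotency markers summed to 8200 to 8722 CPM in the knockout and 8097 to 8723 in wild type, and none was at 0. Most of that sum was Dppa5a and Pou5f1, and within it Nanog fell from 561.2 ± 64.4 to 429.4 ± 19.2 CPM (SD, n = 3; edgeR adjusted p = 0.00167) and Zfp42 rose from 187 ± 3.51 to 228 ± 12.6 CPM (edgeR adjusted p = 1.43e-05). The call of Nanog was lost without knockout replicate 2, at an adjusted p of 0.0934, and without knockout replicate 3, at 0.0694. Fibroblast markers summed to 5.60 to 6.93 CPM in the knockout and 8.63 to 9.96 in wild type, with Col3a1, Postn, Lum and Dcn at 0 in all libraries, and Thy1 among them fell (log2 fold change −0.97, edgeR adjusted p = 0.00859; 0.0559 without knockout replicate 1). Primitive endoderm markers summed to 5.86 to 11.04 and 3.42 to 6.46 CPM, with Sox7 at 0, and Gata4 among them rose (log2 fold change 1.10, edgeR adjusted p = 0.0247; 0.277 without knockout replicate 1, 0.0896 when wild-type replicate 1 was left out and 0.139 when wild-type replicate 2 was). Over the alternative settings, those named included, Gata4 was weaker in 7 and the same in 7. Thy1 was weaker in 4 and the same in 10, and Nanog weaker in 3 and the same in 11. Trophectoderm markers summed to 77.7 to 82.1 and 83.1 to 91.4 CPM with none at 0. The part of these levels in the results on Zscan4 and its partners was not tested.

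Some other genes of the 2-cell-like state were also lower in the knockout, and part of the list was not detected. Of 69 genes listed, 67 were in the files and 44 had a count in any library. Every knockout library lay below every wild-type library for 18 of these 44, against 8.28% of all genes with a count. Without a count filter edgeR called 14 of the 44 lower and 0 higher, against 7.26% and 6.03% of all genes, with a median log2 fold change of −1.77 beside −0.01. This list was drawn up with earlier results of these data known, so the counts are a description of the list and no independent evidence of its direction.

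Only 12 of them passed the filter on low counts, several through their wild-type libraries alone, so their number called is weighted towards genes that differ. By edgeR 9 of the 12 fell and 0 rose, beside 14.4% and 12.1% of all genes tested, and nothing is read from that comparison. At an unadjusted p below 0.05, 10 were lower and 0 higher. The number called higher was also 0 by DESeq2, with either dispersion trend, and by limma on TPM. Some of these genes share stretches with a member, and without them 6 of 9 fell, or 9 of 38 without a count filter.

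The genes that fell include tandem copies of a gene like Eif1a, a translation initiation factor, on chromosome 12. Gm8300 had 3, 3.36 and 0 counts in the knockout and 9.5, 20.1 and 19.4 in wild type, a log2 fold change of −2.97 (SE 0.59; edgeR adjusted p = 0.000242) that was −2.36 without knockout replicate 3. Gm5662 had 3.96, 5.83 and 2.59 counts against 19.88, 23.47 and 19.51, a log2 fold change of −2.27 (SE 0.43; edgeR adjusted p = 0.000153). The 6 Eif1a-like genes summed to 13, 13.21 and 6 counts in the knockout and 51.75, 96.17 and 71.71 in wild type, without overlap. This sum was not planned, and Gm2016 and Gm2022 within it did not separate the groups. Gm2016 had 4.9 counts in knockout library 1 and 2.5 in wild-type library 1. Gm2022 was at 0 in the knockout and in wild-type library 1.

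Calcoco2, an autophagy receptor, fell by a smaller step at a higher level, from 119 ± 4.49 CPM in wild type to 87.6 ± 3.62 in the knockout (SD, n = 3), a log2 fold change of −0.44 (edgeR adjusted p = 3.21e-07). Mylpf, a myosin light chain, had a log2 fold change of −0.24 (edgeR adjusted p = 7.81e-05), a call that was lost with limma on log2(TPM + 1), at an adjusted p of 0.35. Gm20767 (−3.76, edgeR adjusted p = 9.58e-06) and Gm21761 (−3.20, edgeR adjusted p = 6.47e-05) fell too, and share stretches with AF067061. The log2 fold change of Gm20767 was −5.06 without knockout replicate 2, and that of Gm21761 −4.94 without knockout replicate 1. Fbxo15, an F-box gene of stem cells, had a log2 fold change of −0.02 (edgeR adjusted p = 0.832), and Ddit4l, an inhibitor of mTOR signalling, −0.36 (edgeR adjusted p = 0.374), so neither passed.

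**Figure D5:**
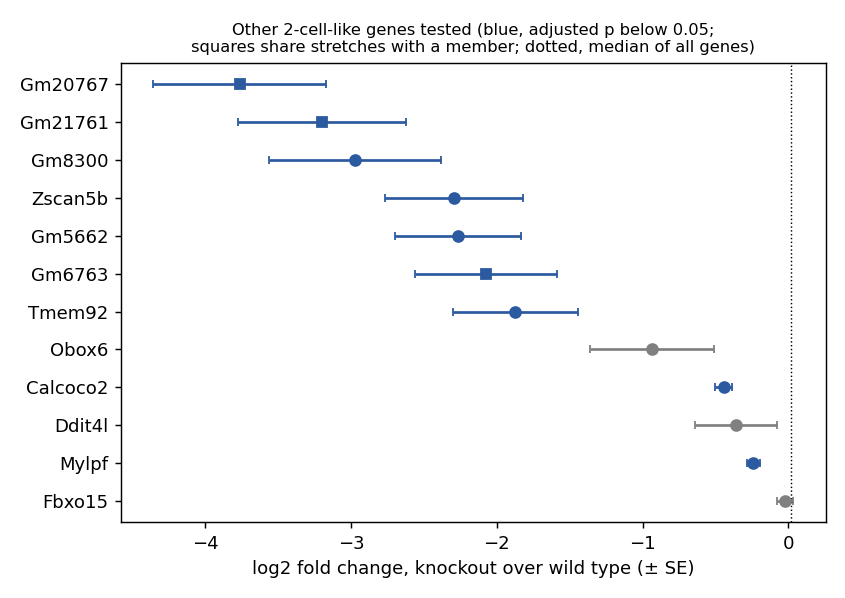
Log2 fold change (knockout over wild type) with its standard error for the 12 tested genes of the 2-cell-like list. The 9 genes in blue passed an edgeR adjusted p of 0.05, all of them below 0, and squares mark genes that share stretches with a member.

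The Zscan4 genes belong to a wider family of SCAN zinc finger genes. Of 10 such genes outside the cluster that were tested, 1 rose and 0 fell by edgeR, beside 12.1% and 14.4% of all genes tested. Their median log2 fold change was 0.10, beside 0.02 for all genes tested. Nothing about the family is read from these counts. At an unadjusted p below 0.05, 2 were higher and 1 lower, and limma on TPM called 0 in either direction. DESeq2 called 0 lower, and 0 higher with its parametric dispersion trend or 1 with a local one. The gene that rose was Zscan26, from 12.9 ± 0.342 to 18.5 ± 2.63 CPM (SD, n = 3; log2 fold change 0.52, edgeR adjusted p = 0.00518). That call was lost without knockout replicate 1, at an adjusted p of 0.0533, and without wild-type replicate 1 the number that rose was 2. Zscan10, a transcription factor of embryonic stem cells, had a log2 fold change of −0.15 (edgeR adjusted p = 0.124), and Zscan21 0.18 (edgeR adjusted p = 0.307).

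Known regulators of the state showed small differences. Of 24 tested, 4 fell and 1 rose by edgeR, beside 14.4% and 12.1% of all genes tested. Their median log2 fold change was 0.01, beside 0.02 for all genes tested. Nothing about the regulators as a list is read from these counts. Without knockout replicate 2 the number that rose was 2. Chaf1b, a subunit of CAF-1, fell from 132.7 ± 7.38 CPM in wild type to 97.1 ± 5.397 in the knockout (SD, n = 3; −0.45, edgeR adjusted p = 2.28e-07). Trim28, a co-repressor that acts with histone methyltransferases, fell by 0.28 on the log2 scale (edgeR adjusted p = 5.36e-06) and Ncl, nucleolin, by 0.22 (edgeR adjusted p = 0.000109). Trp53, which encodes p53, had −0.15 (edgeR adjusted p = 0.0127) and did not pass with DESeq2 and its parametric trend, at an adjusted p of 0.0721 (0.0268 with a local trend), or without knockout replicate 2 or wild-type replicate 2. On log2(TPM + 1), limma gave a log2 fold change of −0.02 for Trp53 (adjusted p = 0.878). Dnmt1, the maintenance DNA methyltransferase, rose by 0.25 (edgeR adjusted p = 0.00171), a call lost with limma on log2(TPM + 1), at 0.0711. Dppa2 and Dppa4, which act upstream of Dux, had log2 fold changes of −0.04 and 0.06 (edgeR adjusted p of 0.782 and 0.512), and were picked here after their values had been seen. Rbbp4, a histone chaperone, had 0.00 (edgeR adjusted p = 0.981), and Uhrf1, which brings Dnmt1 to DNA, −0.09 (edgeR adjusted p = 0.14).

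Genes starting within 1 Mb of a member showed differences in both directions. Of 259 such genes 32 were tested, and by edgeR 11 fell and 6 rose, beside 14.4% and 12.1% of all genes tested. The genes that fell included copies of Gm4340, among them Gm21293 with 4.94, 5.31 and 2.79 counts in the knockout and 37.03, 47.28 and 48.94 in wild type (−3.34, edgeR adjusted p = 6.97e-09). Gm21304, Gm21312 and Gm20765 carried the same deposited value in each library (log2 fold change −3.06, edgeR adjusted p = 1.46e-06). Without genes that share stretches with a member, 3 of 23 fell and 6 rose, beside the same 14.4% and 12.1%. The median log2 fold change of these neighbours was 0.16, beside 0.02 for all genes tested. Zfp131, a zinc finger gene near AF067061, fell with a log2 fold change of −0.73 (edgeR adjusted p = 2.34e-07). The other two that fell, Gm7789 and Gm47164, had −0.77 and −0.27 (edgeR adjusted p of 0.0432 and 2.42e-05) and are named after their values were seen.

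The 6 that rose were less firm. DESeq2 called 0 of the neighbours higher with its parametric dispersion trend and 3 with a local one, and the number was 1 without knockout replicate 1 and 3 without wild-type replicate 2. Around the Zscan4 cluster itself 4 neighbours were tested, of which Gm7789 fell and Zik1 rose (0.82, edgeR adjusted p = 0.039). Zik1 was also picked after its values were seen, and did not pass without a count filter, at an edgeR adjusted p of 0.0555. Gm7789 passed there, at 0.0196, but its groups overlapped. It had 32 counts in knockout library 2 and 31.09 in wild-type library 3. Ranbp2, near Duxf3, had a log2 fold change of 0.26 (edgeR adjusted p = 0.0912) and passed without wild-type replicate 1, at 0.0156. The neighbour 4833420G17Rik had 0.23 (edgeR adjusted p = 0.103).

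The profile of the summed Zscan4 copies over the 6 libraries was compared with that of 12886 other tested genes, as the Euclidean distance between centred log2(CPM + 0.5) values. The nearest was Gm21293, at a distance of 0.648, beside a median of 3.88 over all genes. Rpl39l, a ribosomal protein gene variant, was at 0.698, and had 53, 44 and 48 counts in the knockout and 305, 384 and 336 in wild type. The imprinted RNA H19 was at 0.873, with 61, 44 and 63 counts against 653, 690 and 644. Gm5039 at 1.07, Xlr5b at 1.17 and Gm20767 at 1.195 came next, and all 6 were lower in every knockout library than in every wild-type library. With 2 groups of 3 libraries, any gene with a difference of like size comes close, so the ranking describes these libraries alone.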

How the data were processed

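Polyadenylated RNA of 3 Hoxd12 knockout and 3 wild-type stem cell libraries was analysed from 1 deposited table per library. Per the file headers, these hold expected counts, which are estimated, need not be whole and are not scaled for depth, and TPM and FPKM, which the authors scaled by transcript length and library size. No test used FPKM. Bowtie 0.12.2 stands in the submitters' processing notes, as do mm8 and mm10, without a role. Which counter, annotation and strand setting was used is not given in the sources used here. Each of the 55450 identifiers matched GENCODE M21, the source of symbols and GRCm38 coordinates. Columns of unmapped samples numbered 0.

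Expected counts were rounded and tested in R 4.3.3 with edgeR 4.0.16 (TMM, filterByExpr, robust quasi-likelihood test, group as the only term), with p-values adjusted by Benjamini-Hochberg over 12891 genes and called below 0.05. Sums of copies used the unrounded values and the library total. Their fold intervals are exact binomial at 95%, and cover counting error only. The floor of 3 counts covers that of the knockout counts alone. Shared stretches were 50-base words of annotated transcripts. The edgeR steps were tested on simulated data.

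The members and lists were chosen with earlier results of these data known. The genes named are the members, all other Zscan4 genes, up to 6 called genes with the smallest p and 2 uncalled genes with the highest CPM per list, and the 6 nearest profiles. Alternatives were DESeq2 1.42.0, RLE scaling, 1 CPM in 3 libraries or no filter on counts, a replicate block, limma 3.58.1 with TPM as log2(TPM + 1) or log2(TPM + 0.1), and leaving out each library. The sum was also taken over 9 genes and with fractions dropped. Chosen after seeing the data was a local dispersion trend in DESeq2, whose parametric trend is the default. So were the sums over copies of the partners and the lists without genes sharing stretches. Also unplanned was the sum over 6 Eif1a-like genes.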

Additional observations from a re-analysis of the deposited data

How the results depend on the processing

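The summed Zscan4 copies were lower in the knockout under every alternative run. Their log2 ratio was −3.30, and −2.58 on log2(TPM + 1), whose pseudocount is large beside the knockout level. It ranged from −3.44 to −3.07 when each library was left out. It was −3.31 over 9 genes and −3.41 with fractions dropped. All fitted members lay below 0 in every setting, and their number was 4, 10 with DESeq2 under either trend, 10 without a count filter and 4 to 6 when each library was left out, since the number fitted follows the filter. Replicate numbers were no evidence of pairing: the deviations of same-numbered libraries correlated at −0.00111, 0.0374 and 0.0188. With the replicate block the fitted summed ratio was −3.35 and 3353 genes were called in place of 3420. Fits without a block, by RLE scaling or without a count filter, also gave −3.35. The −3.30 above is a ratio of mean CPM without a fit, so its distance from −3.35 is not read as an effect of the block.

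Genes called numbered 1536 with DESeq2, and 1856 and 1824 with limma on log2(TPM + 1) and log2(TPM + 0.1). Those lower were 1033, 749 and 738, those higher by DESeq2 503. The DESeq2 counts depend on its dispersion trend: with a local trend, added after seeing the data, 2394 genes were called, 1439 lower and 955 higher. On log2(TPM + 0.1) the median of all genes was 0.11. Leaving out each library gave 2615 to 3210 calls, 1486 to 1787 lower and 1118 to 1423 higher.

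Of other 2-cell-like genes, 14 fell without a count filter. Of neighbours, 7 fell on both TPM scales, and 0 rose with DESeq2 or 3 with its local trend, 3 and 3 on the TPM scales and 1 to 5 when each library was left out. SCAN relatives that rose numbered 0 with DESeq2 or 1 with its local trend, 0 and 0 on the TPM scales and 0 to 2 when each library was left out. Regulators that rose numbered 2 without a count filter, 0 and 0 on the TPM scales and 1 to 2 when each library was left out. The cause of these shifts was not tested. Low counts of the single copies, and reads divided among copies, limit every value of one gene of a copy group.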
